A study of Mus musculus with 2 samples.

Results

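The genes described here are 8 that act on the extracellular matrix of the heart: the matrix metalloproteinases Mmp2 and Mmp14, the tissue inhibitors of metalloproteinases Timp1, Timp2, Timp3 and Timp4, and the secreted metalloproteinases Adamts1 and Adamts2. They were taken by gene symbol, 8 of the 32285 genes counted, and all 8 were detected in both sections. Spatial RNA capture (10x Genomics Visium) was run on 1 transverse heart section from a PD1 KO mouse (PD1 -/-) and on 1 from a PD1 Het mouse (PD1 +/-), both C57BL/6. PD1, encoded by Pdcd1, is an inhibitory receptor of T cells. Both mice had a myocardial infarction made by tying the left anterior descending artery at postnatal day 2, and both hearts were taken 7 days later. The sections were 10 um thick and lay 200 um below the suture, so neither is an uninjured heart, and the control still carries 1 intact copy of Pdcd1. With 1 section per genotype no difference between genotypes could be tested, and genotype, animal, section and library cannot be told apart. The intervals below cover counting error only.

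Each spot of the array covers several cells, so a level in a spot is that of a small region. A summed level cannot separate fewer cells of a type from less RNA per cell. After leaving out spots under 500 UMIs (unique molecular identifiers, 1 for each captured RNA molecule), the PD1 KO section had 851 spots and 23520499 UMIs, and the PD1 Het section had 811 spots and 12814494 UMIs. The sections stood apart in more than genotype. The median spot held 27134 UMIs in the PD1 KO section and 15475 in the PD1 Het section, and mitochondrial transcripts took 15.9% of UMIs in PD1 KO and 25.6% in PD1 Het. Xist, the RNA of the inactive X chromosome, had 1 UMI in PD1 KO and 541 in PD1 Het, and 4 Y-linked genes together had 2900 in PD1 KO and 1 in PD1 Het, so the sections also differ in sex-linked RNA. Pdcd1 had 0 UMIs in both sections, which allows up to 0.128 CPM (counts per 1e+06 UMIs) in PD1 KO and 0.234 CPM in PD1 Het, so the genotype labels could not be checked by it. Of the barcodes, 225 occurred in both sections, which share the barcode set of the array and no cells. The 12 cardiomyocyte markers used here took 7.99% of UMIs in PD1 KO and 8.06% in PD1 Het, as the heart label calls for.

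Metalloproteinases cut collagens, proteoglycans and other matrix proteins, and TIMPs bind and block their active site. Mmp2 is a secreted gelatinase made as an inactive precursor, and Mmp14 is a membrane-anchored collagenase that activates that precursor on the cell surface with Timp2 as a bridge. After infarction, dead muscle is replaced by a collagen-rich scar made by fibroblasts, and the turnover of that matrix depends on the balance of these enzymes and inhibitors.

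The genes lie on 7 chromosomes of GRCm38. Mmp2 spans chr8:92827291-92853420 on the plus strand and Mmp14 spans chr14:54431612-54445364 on the plus strand. Timp1 is X-linked (chrX:20870166-20874735, plus strand) and lies inside Syn1, Timp4 (chr6:115241892-115252205, minus strand) lies inside Syn2, and Timp3 (chr10:86300372-86349506, plus strand) lies inside Syn3. The synapsin gene runs on the opposite strand in each of the 3 cases. The synapsins had few UMIs, 26 in PD1 KO and 14 in PD1 Het for Syn1, 91 in PD1 KO and 22 in PD1 Het for Syn2, and 8 in PD1 KO and 4 in PD1 Het for Syn3. Whether the authors' counting used strand is not given in the sources used here, so for Timp4, itself a gene of few UMIs, reads of the pair may not be fully separated. Timp2 (chr11:118301069-118355740, minus strand), Adamts1 (chr16:85793827-85803113, minus strand) and Adamts2 (chr11:50602084-50807573, plus strand) are the other 3 members.

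RefSeq promoter sequence of build GRCm38.p6 was available for 7 of the 8 genes, and Mmp2 is named only. For 6 of them a window lying before both the RefSeq start and the start in the GENCODE annotation could be read. Those of 4 genes are shown, picked by their spatial results: Adamts2, Mmp14 and Timp1, which were higher in collagen-rich spots of both sections, and Timp4, which was lower there. Each is printed 5′ to 3′ on the gene's own strand and ends before the first of those starts, with capitals marking the GC box GGGCGG on either strand.

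Adamts2 (chr11:50601835-50602083, + strand): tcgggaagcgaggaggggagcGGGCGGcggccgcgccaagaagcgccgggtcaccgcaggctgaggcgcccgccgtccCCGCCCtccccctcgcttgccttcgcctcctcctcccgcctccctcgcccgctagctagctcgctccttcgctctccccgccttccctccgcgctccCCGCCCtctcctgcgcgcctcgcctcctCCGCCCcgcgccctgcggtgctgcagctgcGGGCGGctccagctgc

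Mmp14 (chr14:54431348-54431597, + strand): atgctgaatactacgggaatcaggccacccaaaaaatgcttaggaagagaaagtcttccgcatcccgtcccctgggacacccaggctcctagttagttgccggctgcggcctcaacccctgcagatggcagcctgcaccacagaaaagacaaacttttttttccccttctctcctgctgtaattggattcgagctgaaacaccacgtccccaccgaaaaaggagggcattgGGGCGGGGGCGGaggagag

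Timp1 (chrX:20869916-20870165, + strand): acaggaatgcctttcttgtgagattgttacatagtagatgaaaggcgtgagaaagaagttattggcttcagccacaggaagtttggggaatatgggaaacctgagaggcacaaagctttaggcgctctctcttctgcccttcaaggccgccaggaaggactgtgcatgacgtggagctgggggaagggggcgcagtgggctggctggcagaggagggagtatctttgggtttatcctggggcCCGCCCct

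Timp4 (chr6:115252206-115252455, - strand): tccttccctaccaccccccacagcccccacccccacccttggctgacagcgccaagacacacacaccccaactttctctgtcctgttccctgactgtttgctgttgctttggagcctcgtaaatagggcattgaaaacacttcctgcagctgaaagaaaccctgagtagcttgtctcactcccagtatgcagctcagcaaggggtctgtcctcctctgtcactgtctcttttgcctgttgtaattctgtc

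Adamts2 held 5 GC boxes, Mmp14 held 2, Timp1 held 1 and Timp4 held none. Of those not printed, Adamts1 held 3 and Timp3, also higher in collagen-rich spots of both sections, held none. A GC box was found in 32.7% of 32851 promoter windows of 250 bases. A link between motif and location was not tested. The AP-1 motif TGANTCA, found in 6.75% of windows, and the MEF2 motif, CTA and TAG separated by any 4 bases and in 3.20%, were in none of the 6 windows read. The TATA box TATAAA, found in 12.4% of windows, was in that of Adamts1 alone. The motifs were searched on both strands, and a match or its absence is a property of these letters.

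Most of the 8 genes had close to the same level in both sections. Mmp14 and Timp4 were lower in the PD1 KO section by more than 1.5-fold relative to the median gene, and no member was higher by that much. Of the 11455 genes whose UMIs summed to 100 or more over the sections, 3.3% were lower and 5.5% were higher by that rule. The median gene itself had a log2 CPM ratio of 0.33 (1.26-fold) in PD1 KO over PD1 Het, and every ratio called relative below has that shift taken out. The median relative log2 ratio of the 8 members was -0.20, and 7 of 8 lay below the median gene, although 5 of 8 had a higher CPM in PD1 KO.

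**Figure D1:**
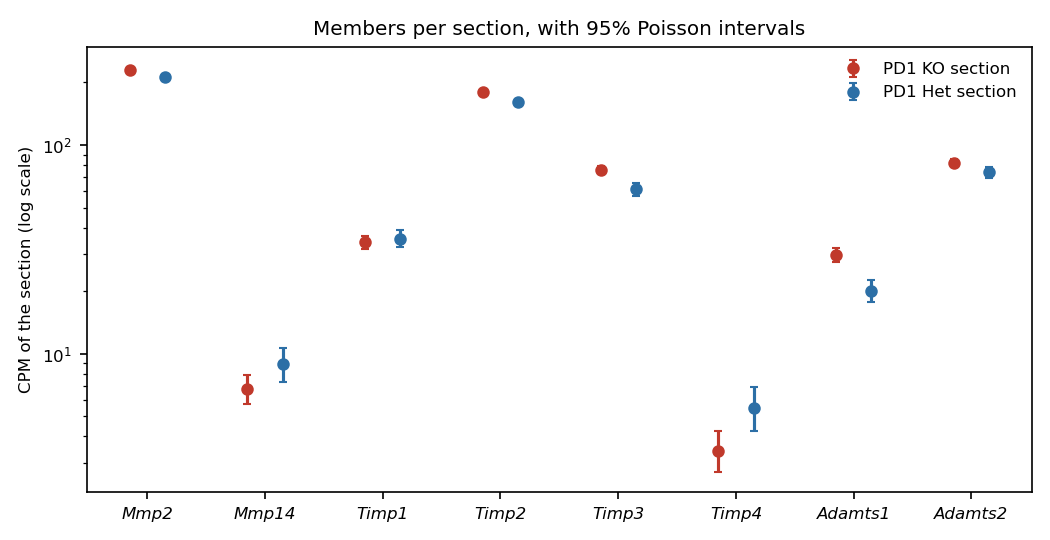
Level of each gene in CPM of the whole section, on a log scale, with exact 95% Poisson intervals, for the PD1 KO section (left point of each pair) and the PD1 Het section (right point). The intervals of the pair stand apart for Mmp2, Timp2, Timp3, Timp4 and Adamts1, the last at 29.8 CPM in PD1 KO and 19.98 CPM in PD1 Het; UMI levels are compared between the sections and not between genes.

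Of the proteases that cut gelatin and collagen, Mmp2 had 5410 UMIs (230.0 CPM) in PD1 KO and 2711 UMIs (212 CPM) in PD1 Het. Its log2 CPM ratio was 0.12, and relative to the median gene it was -0.21 (95% interval -0.28 to -0.14). Mmp14 had 159 UMIs (6.76 CPM, interval 5.75 to 7.90) in PD1 KO and 114 UMIs (8.90 CPM, interval 7.34 to 10.7) in PD1 Het. Mmp14 was the protease with the lower level in PD1 KO on each scaling tried, with a relative log2 ratio of -0.73 (-1.08 to -0.37), and the intervals of its CPM overlapped. Its log2 ratio was short of 1.5-fold by CPM (-0.40) and by CPM without mitochondrial genes (-0.57). Relative to the median gene the linear ratio was 0.604 for Mmp14, the activator, and 0.864 for Mmp2, its target.

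Among the inhibitors, Timp1, a broad inhibitor of secreted metalloproteinases, had 802 UMIs (34.1 CPM) in PD1 KO and 455 UMIs (35.5 CPM) in PD1 Het, a relative log2 ratio of -0.39 (-0.56 to -0.22). Timp2, which both inhibits Mmp2 and takes part in its activation, had 4215 UMIs (179 CPM) in PD1 KO and 2052 UMIs (160.1 CPM) in PD1 Het, a relative log2 ratio of -0.17 (-0.25 to -0.09). Timp3, which stays bound to the matrix and also blocks ADAM and ADAMTS enzymes, had 1783 UMIs (75.8 CPM) in PD1 KO and 785 UMIs (61.3 CPM) in PD1 Het, a relative log2 ratio of -0.02 (-0.15 to 0.10). These 3 inhibitors lay within 1.5-fold of the median gene. Timp4, the inhibitor known for its expression in heart muscle, stood apart from them with 80 UMIs (3.40 CPM, interval 2.70 to 4.23) in PD1 KO and 70 UMIs (5.46 CPM, interval 4.26 to 6.90) in PD1 Het. Its relative log2 ratio was -1.01 (-1.50 to -0.53), and its UMIs were spread thinly, with at most 2 in any spot of either section. Syn2, the gene around Timp4 on the opposite strand, went the other way, with 91 UMIs in PD1 KO and 22 in PD1 Het. The relative log2 ratio of Syn2 was 0.84 (0.16 to 1.58). The part of read assignment between Timp4 and Syn2 in these ratios was not tested.

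Adamts1, which cuts the proteoglycans versican and aggrecan, was the 1 member above the median gene, with 700 UMIs (29.8 CPM) in PD1 KO and 256 UMIs (19.98 CPM) in PD1 Het. Its relative log2 ratio was 0.24 (0.04 to 0.46), short of 1.5-fold. Adamts2, which removes the amino-terminal propeptide from fibrillar procollagens, had 1933 UMIs (82.2 CPM) in PD1 KO and 948 UMIs (74.0 CPM) in PD1 Het, a relative log2 ratio of -0.18 (-0.29 to -0.07). For Mmp2, Timp2, Timp3 and Adamts2 the sign depends on the scaling, since all 4 were above 0 by CPM and below 0 relative to the median gene. With mitochondrial genes left out of the totals, their log2 CPM ratios were -0.06, -0.02, 0.13 and -0.03 in that order, and with spots thinned to an equal depth their relative ratios were -0.11, -0.01, 0.11 and 0.07.

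The share of spots with a UMI was compared after thinning each spot to 10000 UMIs, which left 839 PD1 KO spots and 759 PD1 Het spots and dropped 12 shallower ones in PD1 KO and 52 in PD1 Het. Adamts1 was then found in 24.7% of PD1 KO spots (21.8% to 27.7%) and 17.8% of PD1 Het spots (15.1% to 20.7%), and Timp3 in 54.0% of PD1 KO spots and 42.7% of PD1 Het spots. Timp1 was found in 25.6% of spots in both sections, and Timp4 in 3.22% of PD1 KO spots and 5.93% of PD1 Het spots. Before thinning, the shares were 52.1% in PD1 KO and 24.4% in PD1 Het for Adamts1, 83.3% in PD1 KO and 58.2% in PD1 Het for Timp3, 50.9% in PD1 KO and 38.1% in PD1 Het for Timp1, and 8.34% in PD1 KO and 8.26% in PD1 Het for Timp4. The order of the sections for Adamts1 and Timp3 was thus the same at matched depth, with a smaller gap, whereas the gap for Timp1 was not seen at matched depth.

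To place the genes in the tissue, spots were ordered within their section by the share that 5 fibrillar collagen genes, none of them a member, took of a spot's UMIs, and were divided into 5 bins of equal size, bin 1 with the least and bin 5 with the most collagen. Collagen transcripts took 0.540% of UMIs in PD1 KO and 0.372% in PD1 Het, and the top bin held 1.49% in PD1 KO and 0.929% in PD1 Het. In both sections 6 of 8 members were at least 2-fold higher in the top than in the bottom bin, where 11.4% of 11995 genes in PD1 KO and 12.6% of 10404 genes in PD1 Het were. Timp4 was the 1 member at least 2-fold lower in both sections, against 0.8% of genes in PD1 KO and 0.461% in PD1 Het. The median log2 ratio of top over bottom bin over the 8 members was 1.94 in PD1 KO and 1.76 in PD1 Het, and over all genes it was 0.27 in PD1 KO and 0.32 in PD1 Het.

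**Figure D2:**
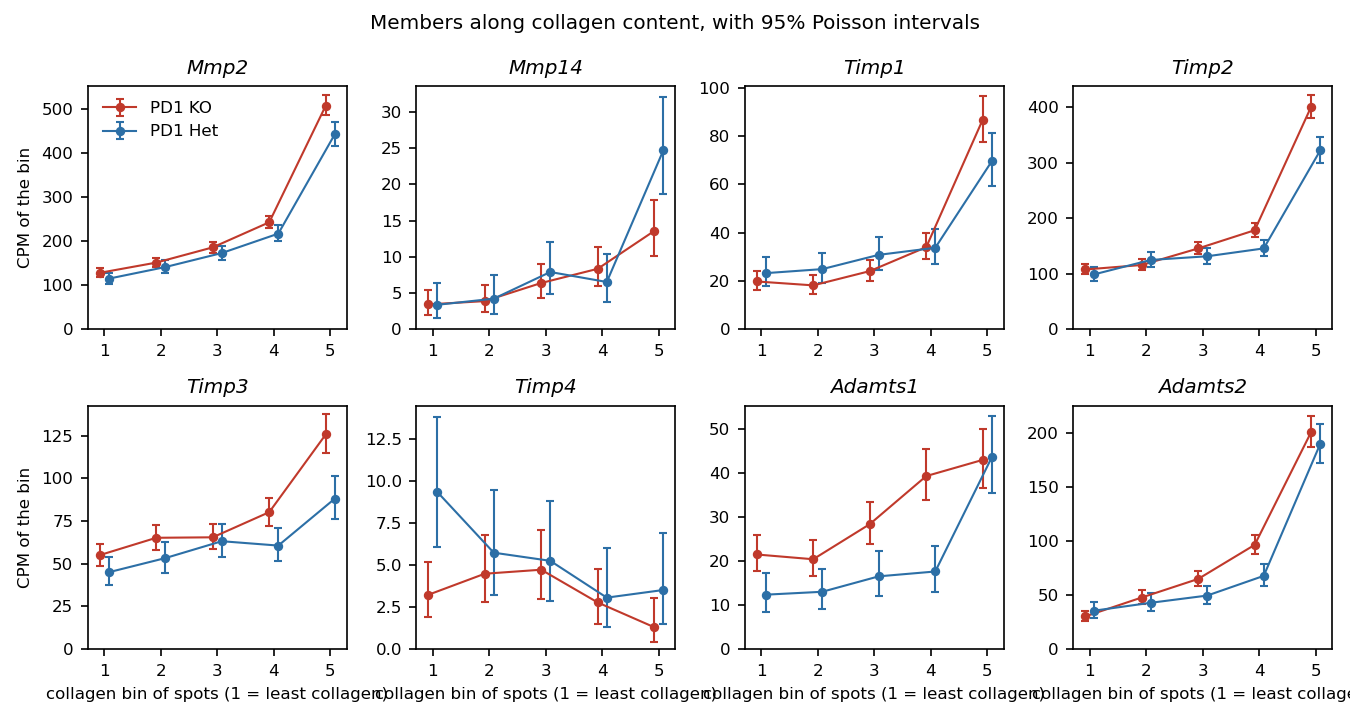
CPM of each gene in the 5 collagen bins of spots, from the least to the most collagen, for the PD1 KO section (red) and the PD1 Het section (blue), with exact 95% Poisson intervals. Mmp2, Timp1, Timp2 and Adamts2 climb steeply in the last bin of both sections, Mmp14 does so more in PD1 Het, and Timp4 is lowest at high collagen in PD1 KO.

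Adamts2 had the steepest gradient in PD1 KO. Its levels from collagen bin 1 to bin 5 were 30.3, 47.8, 65.0, 96.6 and 201 CPM in PD1 KO, and 35.6, 42.9, 49.6, 67.9 and 190.3 CPM in PD1 Het. The top bin was 6.65-fold above the bottom bin in PD1 KO (5.60 to 7.94) and 5.34-fold in PD1 Het (4.27 to 6.74). A procollagen-processing enzyme thus lay where procollagen transcripts were most abundant, in both sections.

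Mmp2 had 128, 152, 186, 243 and 509 CPM across the bins in PD1 KO, and 115, 141, 173, 217 and 444 CPM in PD1 Het. The ratios of top over bottom were 3.96 in PD1 KO (3.63 to 4.33) and 3.85 in PD1 Het (3.39 to 4.39). Timp2 followed it closely, with 108, 116, 146, 179 and 401 CPM in PD1 KO and 99.0, 125, 132, 146 and 322 CPM in PD1 Het, or 3.72-fold in PD1 KO and 3.26-fold in PD1 Het. Mmp2 and its inhibitor Timp2 were thus both highest at the collagen-rich end of both sections. Across spots their per-spot levels had a Pearson r of 0.60 in PD1 KO and 0.39 in PD1 Het, the highest of the 28 member pairs in PD1 KO. Spots share a library, and their depths differ, so this r is a description.

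Mmp14 was also higher toward the collagen-rich end of both sections. Its levels across the bins were 3.43, 3.88, 6.38, 8.34 and 13.6 CPM in PD1 KO, and 3.37, 4.22, 7.89, 6.52 and 24.7 CPM in PD1 Het. The top bin was 3.96-fold above the bottom in PD1 KO (2.28 to 7.19) and 7.31-fold in PD1 Het (3.59 to 16.8), and these intervals overlap. With spots thinned to an equal depth, the log2 ratio of top over bottom was 1.86 in PD1 KO and 2.28 in PD1 Het. The top collagen bin held 52 of the 159 Mmp14 UMIs (32.7%) in PD1 KO and 56 of 114 (49.1%) in PD1 Het.

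Timp1 was concentrated at high collagen in both sections, with a different shape. Its levels were 19.8, 18.2, 24.1, 34.0 and 86.8 CPM in PD1 KO, and 23.2, 24.9, 30.8, 33.8 and 69.6 CPM in PD1 Het. The top bin was 4.39-fold above the bottom in PD1 KO (3.51 to 5.52) and 2.99-fold in PD1 Het (2.22 to 4.08), so PD1 KO was the lower section in bins 1 to 3 and the higher one in bin 5 by CPM, with CPM intervals that overlap in every bin. Timp3 climbed less, with 55.0 to 126 CPM in PD1 KO and 44.99 to 88.1 CPM in PD1 Het between the bottom and top bins, or 2.28-fold in PD1 KO and 1.96-fold in PD1 Het. Adamts1 was 2.00-fold higher in PD1 KO (1.56 to 2.56, marginally short of 2-fold) and 3.52-fold in PD1 Het (2.36 to 5.40). The 6 members past 2-fold thus include Timp3 in PD1 KO and Adamts1 in PD1 Het.

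Timp4 ran against the rest. It had 3.24, 4.49, 4.73, 2.78 and 1.30 CPM across the collagen bins in PD1 KO, from 17, 22, 23, 13 and 5 UMIs. In PD1 Het it had 9.37, 5.75, 5.26, 3.07 and 3.52 CPM, from 25, 15, 14, 8 and 8 UMIs. The ratio of top over bottom was 0.403 in PD1 KO, with an interval from 0.116 to 1.14 that includes equal levels, and 0.376 in PD1 Het (0.147 to 0.860). With 3 bins, or with cut points common to both sections, the PD1 KO ratio did not reach 2-fold.

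Ranked instead by 12 cardiomyocyte genes, the bins gave the opposite picture. Collagen and cardiomyocyte shares opposed each other across spots, with a Spearman rho of -0.60 in PD1 KO and -0.43 in PD1 Het. In PD1 KO, 5 of 8 members were at least 2-fold lower in the top than in the bottom cardiomyocyte bin, against 7.2% of genes, and 1 was higher, against 1.2%. In PD1 Het, 2 were lower, against 4.28% of genes, and 0 were higher, against 1.5%; no test stands behind either count. Mmp14 and Adamts2 were lower in both sections: Mmp14 had 2.34 CPM in the top and 13.5 CPM in the bottom bin of PD1 KO, and 4.28 and 18.4 CPM in those of PD1 Het. The 1 higher member was Timp4, with 4.89 CPM in the top and 1.72 CPM in the bottom bin of PD1 KO (2.83-fold, 1.18 to 7.82), and with 5.99 and 3.07 CPM in those of PD1 Het (1.95-fold, 0.763 to 5.36).

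Both axes were also held at once in a grid of 3 by 3 bins. Spots in the top collagen bin and bottom cardiomyocyte bin of that grid had 12.9 CPM of Mmp14 in PD1 KO (193 spots) and 23.4 CPM in PD1 Het (159 spots). In the same top collagen bin but with a middle cardiomyocyte share, Mmp14 had 8.30 CPM in PD1 KO and 6.19 CPM in PD1 Het. In the cardiomyocyte-poor spots of the lower collagen bins the order was the same as in that middle group, with 10.6 CPM in PD1 KO and 8.30 CPM in PD1 Het at middle collagen, and 5.93 CPM in PD1 KO (6 UMIs) and 2.31 CPM in PD1 Het (2 UMIs) at low collagen. Adamts1 differed in another way. It had 47.2 CPM in PD1 KO and 25.6 CPM in PD1 Het in that collagen-rich middle group, and 43.5 CPM in PD1 KO and 37.0 CPM in PD1 Het in the collagen-rich, cardiomyocyte-poor corner.

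Comparing the sections at the same collagen bin gave ratios that varied along collagen for Mmp14, Timp1 and Adamts1. In the top bin Mmp14 had 13.6 CPM in PD1 KO and 24.7 CPM in PD1 Het, a relative log2 ratio of -1.19 (-1.77 to -0.62), whereas in bins 1 to 4 the ratios were -0.31, -0.45, -0.64 and 0.02, all with intervals that include 0. Without the top bin, an alternative added after the data were seen, Mmp14 had 5.44 CPM in PD1 KO and 5.50 CPM in PD1 Het, a relative log2 ratio of -0.35 (-0.82 to 0.14), short of 1.5-fold.

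**Figure D3:**
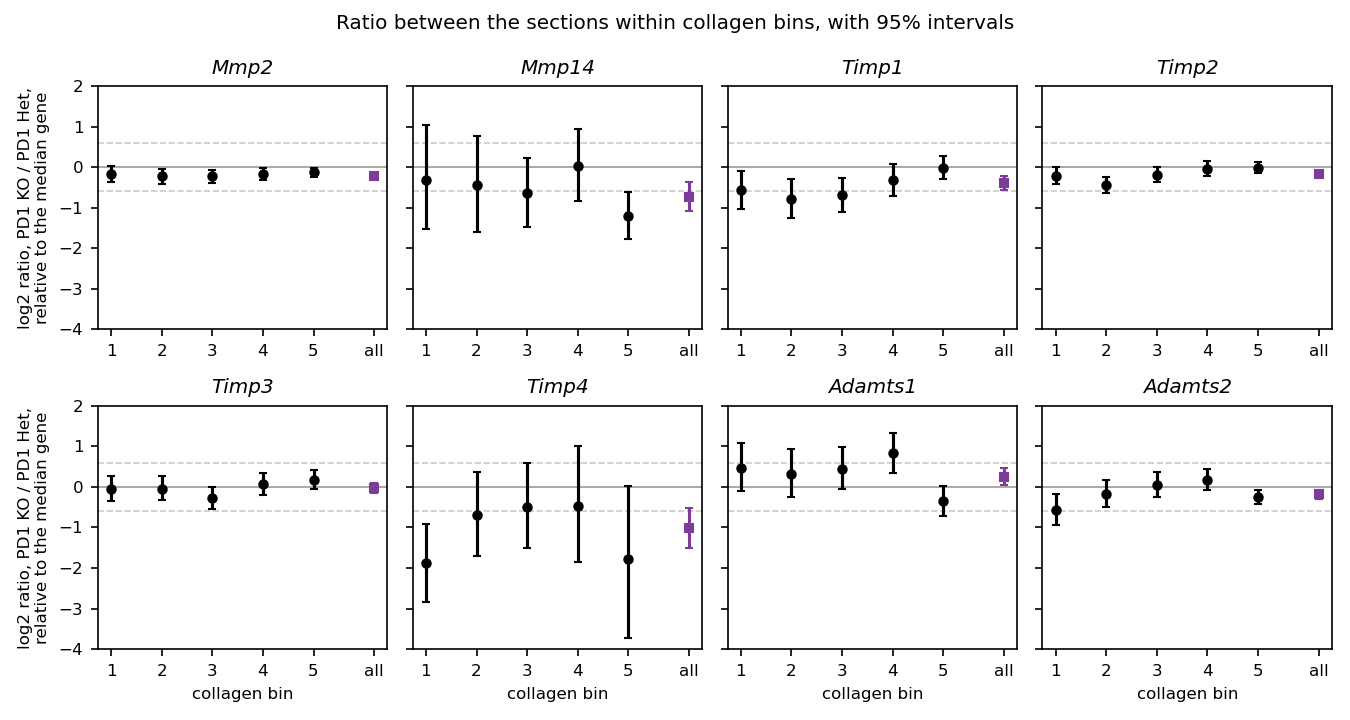
Log2 ratio of PD1 KO over PD1 Het relative to the median gene, for each gene within each collagen bin (black) and over all spots (purple), with 95% intervals for counting error; dashed lines mark 1.5-fold. Mmp14 is lower in bin 5, at -1.19, Timp1 in bins 2 and 3 and Timp4 in bin 1, and Adamts1 is higher in bin 4, at 0.83.

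Relative to the median gene, Timp1 was lower in the bins with less collagen. Its relative log2 ratios in bins 1 to 3 were -0.56, -0.79 and -0.69, each with an interval below 0, and in bin 5 it was -0.01 (-0.29 to 0.27). By CPM the log2 ratios in bins 1 to 3 were smaller, at -0.23, -0.45 and -0.36, and the CPM intervals of the sections overlapped there. Adamts1 had 39.3 CPM in PD1 KO and 17.6 CPM in PD1 Het in bin 4, a relative log2 ratio of 0.83 (0.35 to 1.32), while in bin 5 it had 43.0 CPM in PD1 KO and 43.6 CPM in PD1 Het, a ratio of -0.35 (-0.72 to 0.02). Without the top bin, Adamts1 had a relative log2 ratio of 0.54 (0.28 to 0.80), just under 1.5-fold. The Adamts1 level in PD1 KO was thus already high in bin 4, and that in PD1 Het was high in the top bin alone.

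Timp4 differed most at the collagen-poor end, with 3.24 CPM in PD1 KO and 9.37 CPM in PD1 Het in bin 1, a relative log2 ratio of -1.87 (-2.85 to -0.92). Timp4 was below the median gene in all 5 bins, from -0.47 to -1.87, but the intervals of bins 2 to 5 include 0. Mmp2 ratios stayed between -0.23 and -0.13 in all 5 bins, and those of Timp3 between -0.28 and 0.18. Of the 8 members, 6 or 7 had UMIs summing to 100 or more over the sections in a given bin. Among those, 1 was lower in each of bins 2, 3 and 5, where 5.12%, 4.13% and 7.3% of genes were, and 0 were higher there, where 5.06%, 6.24% and 5.26% were. In bin 4, 1 was higher, where 6.43% of genes were, and 0 were lower, where 3.4% were. In bin 1, 0 passed in either direction, where 5.63% of genes were higher and 4.47% lower. Mmp14 reached that number in bin 5 alone and Timp4 in none.

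A bin of the PD1 KO section is not the same tissue as the same bin of the PD1 Het section. In the top collagen bin, stressed-cardiomyocyte markers such as Nppa summed to 13539 CPM in PD1 KO and 2414 CPM in PD1 Het, and macrophage markers to 1007 CPM in PD1 KO and 540.0 CPM in PD1 Het. Red blood cell markers there were at 4717 CPM in PD1 KO and 13463 CPM in PD1 Het, mast cell markers at 104 CPM in PD1 KO and 189 CPM in PD1 Het, and endocardial markers at 174 CPM in PD1 KO and 234 CPM in PD1 Het. Fibroblast markers were close, at 3690 CPM in PD1 KO and 3750 CPM in PD1 Het. The part of these differences in the ratios of Mmp14, Timp1 and Adamts1 was not tested.

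When spots were instead grouped by cut points common to both sections, so that a group held the same collagen share in both, the top group had 217 PD1 KO spots and 116 PD1 Het spots. Mmp14 then had 13.1 CPM in PD1 KO and 29.9 CPM in PD1 Het in the top group, a relative log2 ratio of -1.52 (-2.09 to -0.95). From group 1 to group 4, with 9 to 43 UMIs in PD1 KO and 13 to 21 in PD1 Het, its ratios were -0.52, -1.17, -0.76 and -0.69, and of these the interval of group 2 alone excludes 0 (-2.21 to -0.16). At matched collagen share the Mmp14 ratio was thus below 0 in all 5 groups. Outside the top group its UMIs were too few to settle whether Mmp14 was lower in PD1 KO. Adamts2 had 185 CPM in PD1 KO and 235 CPM in PD1 Het there, a ratio of -0.68 (-0.85 to -0.50), and Mmp2 had 455 CPM in PD1 KO and 519 CPM in PD1 Het, a ratio of -0.52 (-0.64 to -0.40). Relative to the whole-section median gene, Adamts2 thus passed 1.5-fold lower in PD1 KO at matched collagen share, which it did not at matched rank. No share of all genes past 1.5-fold stands beside these groups. The 5 collagen genes that set the groups were themselves higher by CPM in PD1 KO, Col1a1 at 1425 CPM and at 821 CPM in PD1 Het. A common collagen share therefore falls at different ranks in the sections. Timp1 had ratios of -1.07, -0.72, -0.49, -0.92 and -0.46 from group 1 to group 5, so its ratio close to 0 in bin 5 by rank was not seen at matched collagen share. Adamts1 had a ratio of -0.58 (-0.96 to -0.19) in the top group. Relative to the whole-section median gene, Mmp2, Timp1, Timp2 and Adamts2 had ratios below 0 in all 5 groups, with intervals that exclude 0. Timp3 had such a ratio in 1 of 5. The size of these ratios rests in part on the shift taken out. By CPM, Timp2 in group 1 went the other way, with 105 CPM in PD1 KO and 102 CPM in PD1 Het. Some other gaps were narrow by CPM. Mmp2 in group 2 had 148 CPM in PD1 KO and 149 CPM in PD1 Het. Adamts2 in group 4 had 79.1 CPM in PD1 KO and 79.4 CPM in PD1 Het.

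The summed ratio of inhibitor to protease UMIs was similar in the sections and lower in spots with more collagen, but the inhibitors did not move alike. Top over bottom, Mmp2, the bulk of the protease UMIs, was 3.96-fold in PD1 KO and 3.85-fold in PD1 Het. Timp2 was 3.72-fold in PD1 KO and 3.26-fold in PD1 Het, and Timp3 was 2.28-fold in PD1 KO and 1.96-fold in PD1 Het. Timp1 UMIs per Mmp2 UMI went from 0.154 to 0.171 in PD1 KO and from 0.202 to 0.157 in PD1 Het. The 4 Timp genes together had 1.24 UMIs per UMI of Mmp2 and Mmp14 in PD1 KO (1.19 to 1.28) and 1.19 in PD1 Het (1.13 to 1.25). From the bottom to the top collagen bin the ratio was 1.41, 1.31, 1.25, 1.17 and 1.18 in PD1 KO, and 1.49, 1.43, 1.27, 1.09 and 1.03 in PD1 Het. In the top bin the interval was 1.11 to 1.25 in PD1 KO and 0.949 to 1.12 in PD1 Het, which overlap narrowly. Mmp14 UMIs per Mmp2 UMI in that bin were 0.0267 in PD1 KO and 0.0556 in PD1 Het. These are ratios of RNA molecules captured at the 3′ end and say nothing of enzyme activity.

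Spots rich in markers of a cell type were set against the other spots of the same section. A member was at least 1.5-fold higher in the top bin of a marker list in 57 of 192 combinations of 8 members, 12 lists and 2 sections. The share of all genes that did so ran from 0.65% to 24.5%, depending on the list and section. All members other than Timp4 were higher in fibroblast-rich spots of both sections, 7 of 8, against 16.1% of genes in PD1 KO and 24.5% in PD1 Het. Adamts2 led there, 3.36-fold higher in PD1 KO and 4.16-fold in PD1 Het. In macrophage-rich spots 6 of 8 members were higher in each section, against 12.9% of genes in PD1 KO and 12.2% in PD1 Het. The members shared by both were Mmp2, Mmp14, Timp1, Timp2 and Adamts2, with Timp3 added in PD1 KO and Adamts1 in PD1 Het. Of the fibroblast-rich spots 62.4% in PD1 KO and 64.2% in PD1 Het were also in the top collagen bin. Of the macrophage-rich spots 60.0% in PD1 KO and 43.2% in PD1 Het were, so the lists mark overlapping regions.

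**Figure D4:**
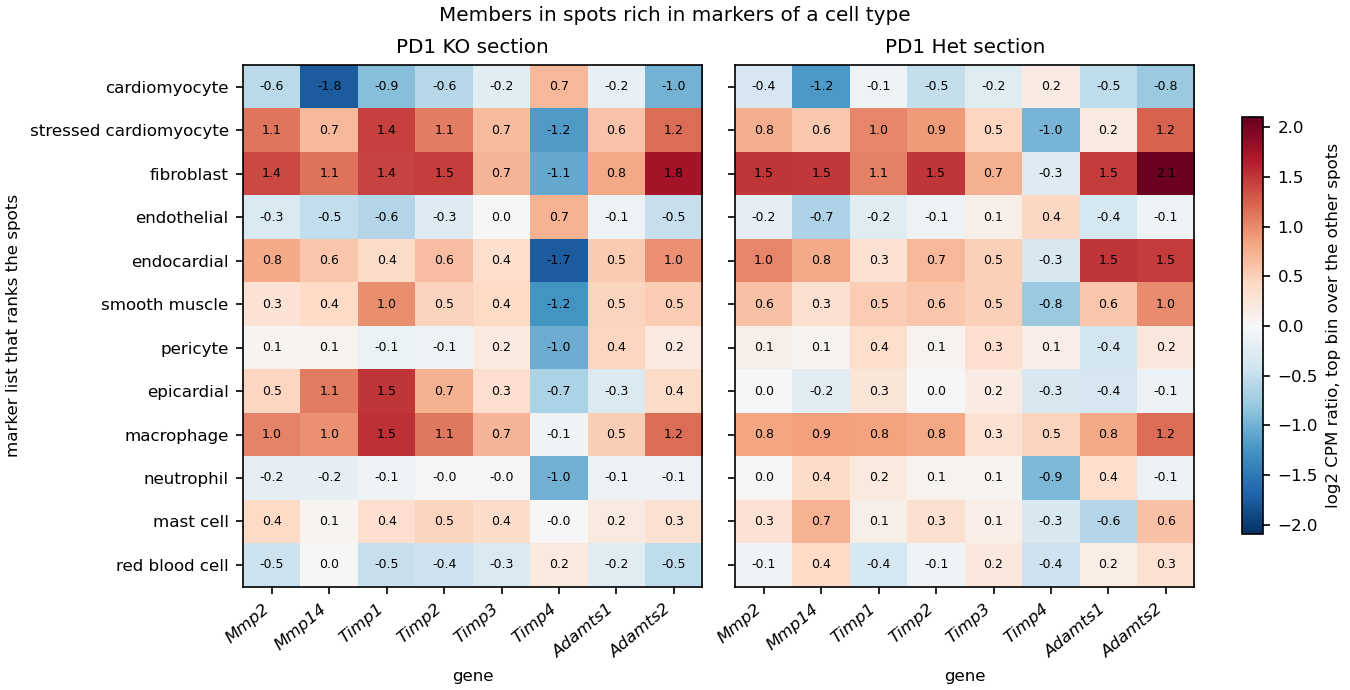
Log2 ratio of a gene's CPM in the bin of spots richest in a marker list (1 of 5 bins) over its CPM in the other spots, for 12 marker lists (rows) and the 8 genes (columns), in the PD1 KO section (left) and the PD1 Het section (right). The 7 genes other than Timp4 are red in the fibroblast row of both sections, from 0.7 to 1.8 in PD1 KO and from 0.7 to 2.1 in PD1 Het. Timp4 is at 0.7 in the cardiomyocyte and endothelial rows of PD1 KO. In PD1 Het it is at 0.2 and 0.4 in those rows and highest in the macrophage row, at 0.5.

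For some other lists the count of members past 1.5-fold differed between the sections. In spots rich in stressed-cardiomyocyte markers, 7 members were higher in PD1 KO (11.5% of genes) and 4 in PD1 Het (9.7% of genes). Mmp14 (1.60-fold in PD1 KO, 1.49 in PD1 Het), Timp3 (1.59 and 1.37) and Adamts1 (1.51 and 1.14) passed in PD1 KO alone. Their intervals overlapped between the sections. Of these spots 57.1% in PD1 KO and 42.6% in PD1 Het were in the top collagen bin. In endocardial-rich spots 4 were higher in PD1 KO (7.38% of genes) and 5 in PD1 Het (12% of genes), with Adamts1 1.46-fold in PD1 KO and 2.82-fold in PD1 Het. In epicardial-rich spots Timp1 (2.84-fold), Mmp14 (2.14-fold) and Timp2 (1.68-fold) were higher in PD1 KO, against 5.57% of genes, and none was in PD1 Het, against 2.69%. These differences between the sections were not tested. The collagen share of the epicardial-rich spots was 0.947% in PD1 KO and 0.408% in PD1 Het, and 45.9% of them in PD1 KO and 28.4% in PD1 Het were in the top collagen bin.

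Timp4 was higher in PD1 KO in cardiomyocyte-rich spots (1.61-fold, 0.948 to 2.66, 1.61% of genes) and in endothelial-rich spots (1.67-fold, 0.980 to 2.75, 2.01% of genes), and both intervals include equal levels. In PD1 Het it was 1.12-fold in cardiomyocyte-rich spots, where 0 members were higher (3.81% of genes), and 1.35-fold in endothelial-rich spots, where again 0 were (3.22% of genes), and its largest fold in that section was 1.39, in macrophage-rich spots (0.741 to 2.46). With smooth muscle markers 1 member was higher in PD1 KO (Timp1, 1.97-fold, 5.26% of genes) and 3 in PD1 Het (9.04% of genes), among them Adamts2 at 1.98-fold. With mast cell markers 0 were higher in PD1 KO (5% of genes) and 2 in PD1 Het (4.45% of genes), Mmp14 at 1.66-fold and Adamts2 at 1.53-fold. No member was higher in either section in spots rich in pericyte markers (2.85% of genes in PD1 KO and 3.7% in PD1 Het), neutrophil markers (1.39% in PD1 KO and 2.23% in PD1 Het) or red blood cell markers (0.65% in PD1 KO and 1.93% in PD1 Het). The neutrophil list was sparse, and S100a9, its most counted gene, had 95 UMIs in PD1 KO and 72 in PD1 Het. The top neutrophil bin can therefore include spots without any neutrophil UMI, so nothing is concluded from that list.

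Likeness across spots was measured as Pearson r of log2 levels with 2915 genes of at least 500 UMIs in each section, taking the lower r of the 2 sections. Mmp2 was most like Dcn (0.51), Col3a1 (0.51) and Sparc (0.50). Timp2 was most like Bgn (0.49), Postn (0.47) and Fbn1 (0.46), and Adamts2 most like Eln (0.54), Bgn (0.52) and Mfap4 (0.52). All of these 8 genes other than Sparc and Postn, which encode matricellular proteins, encode structural matrix proteins or proteoglycans. Timp1 was most like Col1a1 (0.42), Col1a2 (0.40) and Actb (0.35). Mmp14, Timp3, Timp4 and Adamts1 had no gene at 0.3 or above, and the UMIs of Mmp14 and Timp4 were sparse.

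Other genes of the pathway were taken from 9 lists of 80 genes. Of these, 61 had UMIs summing to 30 or more over the sections, and 8 of the 61 were at least 1.5-fold higher in PD1 KO relative to the median gene and 1 was lower. Among the 13163 genes with that many UMIs, 7.04% were higher and 4.95% were lower. By CPM alone 16 of the 61 were higher and 0 lower. No share of all genes by CPM stands beside these 2 counts. The median gene itself was 1.26-fold higher in PD1 KO by CPM, so they are not read as a result about these lists. The median relative log2 ratio of the 61 was 0.03.

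**Figure D5:**
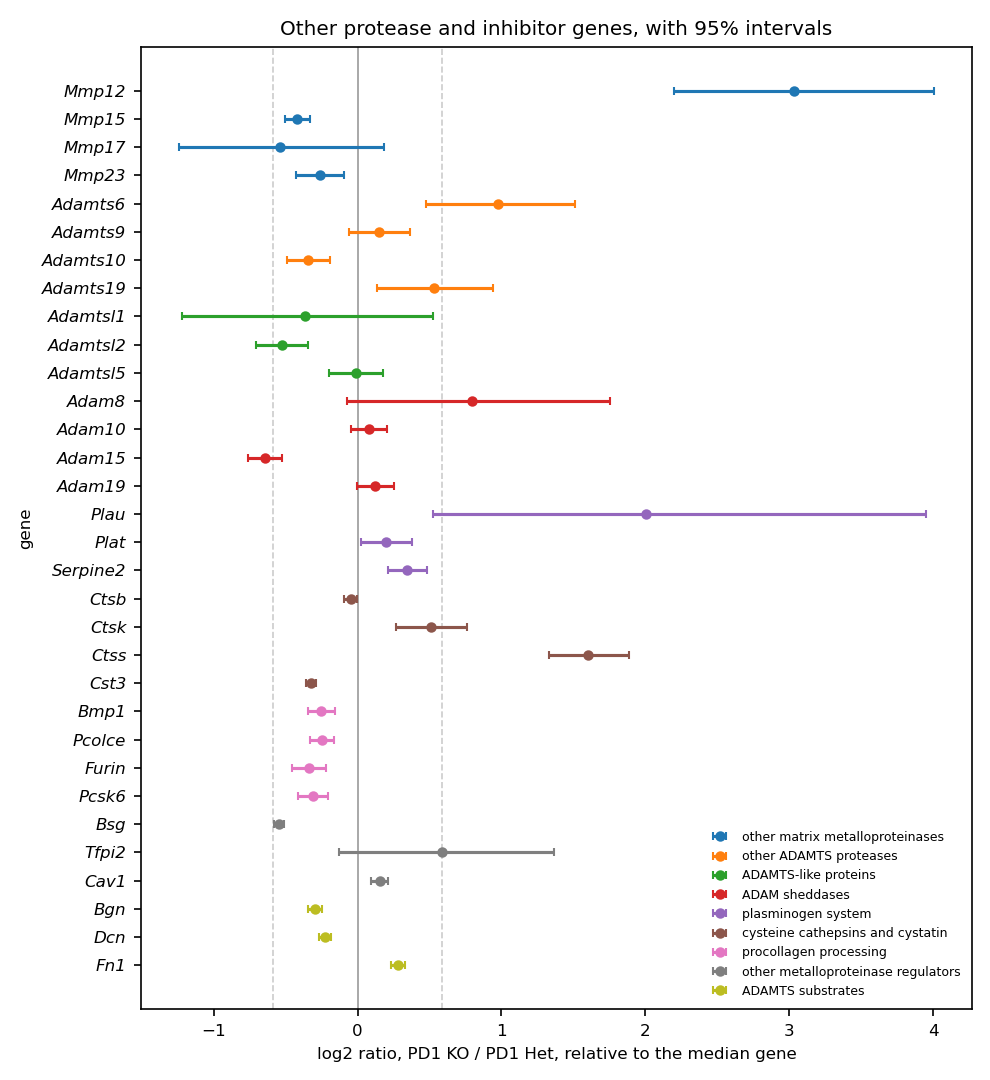
Log2 ratio of PD1 KO over PD1 Het relative to the median gene, with 95% intervals for counting error, for the genes named from 9 lists of proteases, regulators and substrates, coloured by list; dashed lines mark 1.5-fold. Mmp12, Plau, Ctss and Adamts6 lie right of the dashed line with their whole range or nearly so, and Adam15 lies left of the other dashed line at -0.65.

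Among the other matrix metalloproteinases, 1 of 7 was higher. Mmp12, the elastase of macrophages, had 227 UMIs (9.65 CPM) in PD1 KO and 12 UMIs (0.936 CPM) in PD1 Het, a relative log2 ratio of 3.03 (2.20 to 4.01). The UMIs came from 67 spots in PD1 KO and 8 in PD1 Het, and 75 of the 227 from a single spot. Without the top spot of each section, an alternative added after the data were seen, Mmp12 had 6.47 CPM in PD1 KO and 0.703 CPM in PD1 Het, a relative log2 ratio of 2.87. In the top collagen bin it had 43.3 CPM in PD1 KO and 3.08 CPM in PD1 Het. The 10 macrophage markers summed to 386 CPM in PD1 KO and 290.4 CPM in PD1 Het over the section, with 1 of 10 past 1.5-fold and none at 0, and their part in the ratios of Mmp12 and of Ctss below was not tested. Mmp15, a membrane-type metalloproteinase, had 121 CPM in PD1 KO and 128 CPM in PD1 Het (relative -0.42), Mmp23 had 37.1 CPM in PD1 KO and 35.4 CPM in PD1 Het (relative -0.26), and Mmp17 had 46 UMIs in PD1 KO and 29 in PD1 Het.

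Of 12 further ADAMTS genes, 1 was higher. Adamts6 had 182 UMIs (7.74 CPM) in PD1 KO and 40 UMIs (3.12 CPM) in PD1 Het, a relative log2 ratio of 0.98 (0.48 to 1.51). Adamts19 (0.53), Adamts9 (0.15) and Adamts10 (-0.34) lay within 1.5-fold, as did the 5 ADAMTS-like genes, among them Adamtsl2 at -0.52. Of 8 ADAM genes, which shed membrane proteins, 3 were higher and 1 lower. Adam8 had a relative log2 ratio of 0.79 from 56 UMIs in PD1 KO and 14 in PD1 Het, with an interval that includes 0 (-0.07 to 1.75). Adam9 (0.59) and Adam12 (0.60), named after their values were seen, passed narrowly. Adam15 was the 1 lower gene of the 61, with 62.7 CPM in PD1 KO and 78.0 CPM in PD1 Het, a relative log2 ratio of -0.65 (-0.76 to -0.53).

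In the plasminogen system, whose protease plasmin cuts fibrin and can activate metalloproteinase precursors, 1 of 4 genes was higher in PD1 KO. Plau, the urokinase activator of plasminogen, had 37 UMIs in PD1 KO and 4 in PD1 Het, a relative log2 ratio of 2.00 (0.52 to 3.95). Serpine2 (0.35) and Plat (0.20) lay within 1.5-fold. Of 5 cathepsins, lysosomal cysteine proteases, and their inhibitor Cst3, 1 gene was higher. Ctss, a cathepsin found in macrophages and other antigen-presenting cells, had 856 UMIs (36.4 CPM) in PD1 KO and 122 UMIs (9.52 CPM) in PD1 Het, a relative log2 ratio of 1.60 (1.33 to 1.89). Ctsk, a collagen-cutting cathepsin, had 25.0 CPM in PD1 KO and 13.9 CPM in PD1 Het (0.51), and Ctsb was at -0.05 and Cst3 at -0.32.

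None of 6 procollagen-processing genes passed 1.5-fold, with Bmp1, the carboxy-terminal procollagen proteinase, at -0.25, its enhancer Pcolce at -0.25, Furin, which cuts Mmp14 out of its precursor form, at -0.34, and Pcsk6 at -0.31. None of 6 matrix substrates passed either, with the proteoglycans Bgn at -0.30 and Dcn at -0.23 and fibronectin (Fn1) at 0.28. Of 7 other regulators of metalloproteinases 1 was higher, Tfpi2 at 0.59 with an interval that includes 0 (-0.13 to 1.36), while Bsg, an inducer of metalloproteinases, was at -0.55 and Cav1 at 0.15.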

How the data were processed

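Raw UMI counts per gene and spot were deposited by the authors for 1 section per genotype; alignment and counting used Space Ranger 1.1.0 on mm10 (GRCm38), per the submitters' processing notes. Other settings: not given in the sources used here. UMIs were summed over spots with at least 500 UMIs and scaled to CPM of all gene UMIs. Ratios are PD1 KO over PD1 Het with the median gene (at least 100 UMIs) subtracted on the log2 scale. Intervals at 95% are exact Poisson, exact conditional binomial, or Clopper-Pearson for shares, and cover counting error only. Spots were divided into 5 bins by list share within a section. Background shares used genes with at least 50 UMIs in a section for location and 100 in both sections for ratios. Likeness used log2 of counts per 10000 UMIs plus 1. Pathway genes with at least 30 UMIs were named by a rule: in each list, 2 by summed UMIs and 2 by the size of the relative ratio. The members and lists were chosen with earlier results of these data known. Of the pathway lists, 1 gene is not reported here. No test was possible. Scripts were tested on simulated data. Gene positions came from the GENCODE annotation, where 32158 of 32285 gene IDs matched. Other totals, cut points, bins, spot filters, thinning and size factors (TMM from edgeR 4.0.16 and median of ratios) were tried. Python 3.11.15, numpy 2.4.6, scipy 1.17.1, pandas 2.3.3 and R 4.3.3 were used.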

Additional observations from a re-analysis of the deposited data

How the results depend on the processing

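No value past its fold changed direction under the alternatives run. With CPM not taken relative to the median gene, and with mitochondrial genes also left out, 1 member (Timp4) in place of 2 was lower in PD1 KO. The log2 shift taken out of a CPM ratio was 0.33 with the median gene and 0.31 with TMM or median-of-ratios factors. It was 0.18 when mitochondrial genes were left out of the totals. The 1 member lower at high collagen in PD1 KO became 0 with 3 bins and with common cut points. On the cardiomyocyte axis in PD1 Het, common cut points gave 1 higher member in place of 0, and leaving mitochondrial genes, or collagen, cardiomyocyte and mitochondrial genes, out of the totals gave 4 lower in place of 2. Over all 40 gene and bin pairs within collagen bins, 1 pair was higher and 7 were lower. The higher count became 0 with common cut points, 2 with a broader matrix list and 4 by CPM. The lower count became 13 with common cut points and 3 by CPM. The 40 pairs include those of Timp4 and Mmp14 with fewer UMIs than the background shares required. No share of all genes stands beside the counts under these alternatives, so they are not read as a result about the members. The other 77 recomputed counts moved by less than 1.5 times. The cause was not tested. Few UMIs limit Timp4, Mmp14, Mmp17, Plau, Adam8 and Tfpi2. No paired analysis was possible because each genotype has 1 section.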
